A study of Homo sapiens with 6 samples.

Results

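The genes described here are 34 named members of the p53 pathway, most of them genes that p53 switches on, measured in MM1.S cells with and without an shRNA against beta-catenin. MM1.S is an established human multiple myeloma cell line. Members were found by their symbol in the array annotation, which paired 97 of the 54675 probe sets with them; 95 of these carried a single symbol and covered 32 of the 34 genes. Expression of BTG2 and FDXR was not analysed here; their promoters were. Of the 32 genes, 28 lay above the filter on dim genes and were tested, among 12939 genes tested in all; a gene was read by its brightest probe set. The series holds 6 Affymetrix arrays. The 3 cultures labelled pKLO GFP control carried a control shRNA, and the 3 labelled pKLO beta-catenin shRNA, carried an shRNA against beta-catenin. All 6 cultures were MM1.S cells infected with lentivirus and sorted as GFP-positive, and called biological replicates. The labels describe triplicate cultures but no separate infections and give no hairpin sequence, so p-values measure the spread between these cultures, which may be technical.

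p53 is a transcription factor that is kept low by MDM2 and MDM4 and accumulates when DNA is damaged or the cell is otherwise stressed. It binds DNA at a pair of short half-sites and switches on genes that stop the cell cycle, repair DNA, tune metabolism or start cell death, and MDM2 among them, which closes a feedback loop. Many of these genes also have other activators, so that their RNA is no direct reading of p53. Neither p53 protein nor the p53 transcript was analysed here.

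The promoters below are shown because the binding element of p53 can be read in several of them, and the values of these genes in the knockdown are given further on. RefSeq promoter windows (GRCh38.p14), 300 bases long from 250 before to 50 after a start site, were found for 27 of the 34 genes, 39 windows in all, since a gene can have several starts. A p53 half-site, the 10-base consensus searched on both strands, had an exact match in 7 of the 39 windows (17.9%) and in 6.63% of 35114 windows of all genes. A pair of half-sites with a spacer of 0 to 13 bases and up to 2 mismatches in the pair was found in 6 of the 39 (15.4%) and in 2.93% of all windows. These 6 windows belong to 5 genes, since overlapping MDM2 windows hold the same pair, and the allowance of 2 mismatches was chosen after seeing the data. With 0 mismatches a pair was found in 1 of the 39, a window of DDB2, and in 10 of all windows (0.0285%). Capitals mark the pair of half-sites in the windows of DDB2 (chr11:47214724-47215023, + strand), MDM2 (chr12:68808767-68809066, + strand, one of its 4 windows, which overlap in pairs) and FAS (chr10:88991181-88991480, + strand), and the exact half-site in those of SESN1 (chr6:109008939-109009238, − strand), PLK2 (chr5:58460037-58460336, − strand) and RPS27L (chr15:63157428-63157727, − strand). BTG1 (chr12:92145797-92146096, − strand) is shown as the member with the largest rise, and has no match in this window.
DDB2: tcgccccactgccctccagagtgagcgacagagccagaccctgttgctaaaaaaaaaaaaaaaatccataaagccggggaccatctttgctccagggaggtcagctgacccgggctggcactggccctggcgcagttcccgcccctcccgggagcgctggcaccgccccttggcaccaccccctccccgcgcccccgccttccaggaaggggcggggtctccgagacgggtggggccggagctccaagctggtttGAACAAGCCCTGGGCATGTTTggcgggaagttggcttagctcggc
MDM2: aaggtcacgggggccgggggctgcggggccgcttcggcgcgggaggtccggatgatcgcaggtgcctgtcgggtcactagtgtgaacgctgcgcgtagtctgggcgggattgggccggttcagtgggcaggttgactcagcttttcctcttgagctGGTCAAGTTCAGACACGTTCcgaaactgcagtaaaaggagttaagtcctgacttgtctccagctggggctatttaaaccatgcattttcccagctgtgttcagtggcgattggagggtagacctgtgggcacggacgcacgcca
FAS: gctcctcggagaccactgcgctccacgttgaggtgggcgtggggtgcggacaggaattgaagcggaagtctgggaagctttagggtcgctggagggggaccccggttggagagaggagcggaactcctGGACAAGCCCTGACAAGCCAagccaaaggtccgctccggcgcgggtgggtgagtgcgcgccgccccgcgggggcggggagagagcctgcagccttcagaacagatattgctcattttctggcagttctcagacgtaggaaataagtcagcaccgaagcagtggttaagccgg
SESN1: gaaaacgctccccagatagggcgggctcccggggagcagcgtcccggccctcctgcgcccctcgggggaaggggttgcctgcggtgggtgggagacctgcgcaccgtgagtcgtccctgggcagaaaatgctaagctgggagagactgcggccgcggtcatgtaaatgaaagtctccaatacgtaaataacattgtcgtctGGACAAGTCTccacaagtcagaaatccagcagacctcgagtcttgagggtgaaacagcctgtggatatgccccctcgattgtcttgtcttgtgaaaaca
PLK2: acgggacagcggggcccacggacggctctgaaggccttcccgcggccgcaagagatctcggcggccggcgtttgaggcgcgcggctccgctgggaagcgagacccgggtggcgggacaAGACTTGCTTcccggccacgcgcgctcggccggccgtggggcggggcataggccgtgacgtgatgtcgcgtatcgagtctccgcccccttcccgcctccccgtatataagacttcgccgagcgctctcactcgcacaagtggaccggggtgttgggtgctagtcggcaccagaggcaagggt
RPS27L: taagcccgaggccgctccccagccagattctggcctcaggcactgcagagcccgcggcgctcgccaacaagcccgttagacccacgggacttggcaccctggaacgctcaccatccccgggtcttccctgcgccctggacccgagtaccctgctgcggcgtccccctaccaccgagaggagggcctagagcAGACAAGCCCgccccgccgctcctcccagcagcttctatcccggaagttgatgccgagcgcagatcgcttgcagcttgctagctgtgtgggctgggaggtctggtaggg
BTG1: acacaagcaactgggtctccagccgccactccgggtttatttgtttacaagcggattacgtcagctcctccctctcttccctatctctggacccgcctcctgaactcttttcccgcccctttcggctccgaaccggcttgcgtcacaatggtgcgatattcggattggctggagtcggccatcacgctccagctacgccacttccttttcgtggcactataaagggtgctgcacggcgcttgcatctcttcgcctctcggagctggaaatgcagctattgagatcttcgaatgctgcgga
The DDB2 pair lies just after the start site (positions 6 to 26, the start being 1) and has a spacer of 1 base. The MDM2 and FAS pairs have no spacer and 2 mismatches each. A match is a description of the letters and was not tested for binding, and a window without a match says only that these letters are not in it. Of other motifs, on both strands, GGGCGG was found in 31 of the 39 windows (79.5%) and in 45.0% of all windows, CCAAT in 19 (48.7%) and 34.6%, TGANTCA in 6 (15.4%) and 7.71%, and TGACGTCA in 1 (2.56%, PPM1D) and 1.85%. In this order, the matching member windows belong to 22, 14, 4 and 1 of the 27 genes. Overlapping windows of a gene can hold the same site. The median GC content was 62.7% in the member windows and 58.7% in all windows.

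Across the series the arrays had medians of 5.44 to 5.54 on the log2 scale. Pairs of arrays correlated across probe sets, with Pearson's r of 0.980 to 0.983 within control, 0.986 to 0.990 within knockdown and 0.945 to 0.953 across the groups; probe sets are not replicates. CTNNB1, the gene of beta-catenin, fell by 1.33 on its brightest probe set (SE 0.10; limma, adjusted p = 9.04e-12), while its other probe sets gave 0.33, which was called higher in the fit over all probe sets, and −0.07, which was not called. All 8 plasma cell markers were above the filter, with levels from 7.01 (CD38) to 10.81 (XBP1). Of them 7 were called (87.5%), 4 higher and 3 lower, where 47.3% of all genes tested were called. Their changes ran from −0.32 to 0.82. Summed as linear signal, the plasma cell markers ran from 6302 to 6844 in control and from 7099 to 7331 in knockdown arrays. The same sums were 140 to 165 and 143 to 148 for T cell markers, 167 to 202 and 159 to 186 for myeloid markers, 403 to 455 and 432 to 462 for fibroblast markers, and 177 to 213 and 173 to 182 for markers of kidney epithelial packaging cells. Below the filter lay 3 of 5 T cell markers (CD3G at 4.64), 1 of 4 myeloid markers (CD14 at 4.68), 1 of 5 fibroblast markers, while COL1A1 was at 7.96, and 2 of 5 kidney epithelial markers (EPCAM at 4.79). The part of the plasma cell marker shift in the results was not tested. In these bulk cultures, fewer cells of a kind and less RNA per cell cannot be told apart.

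Of the 28 members tested, 19 were called and 9 were not: 16 were higher in the knockdown and 3 lower (limma, Benjamini-Hochberg adjusted p under 0.05 over all 12939 genes). Over all genes tested, 47.3% were called in either direction, 25.3% higher and 22.0% lower, against 67.9%, 57.1% and 10.7% of these members. The members were chosen with earlier results of these data known, so these shares are a description and were not tested. At least a 2-fold rise was seen for 7 of the 28 and 1 fell at least 2-fold, where 2.74% and 3.39% of all genes did. The median change was 0.36, beside 0.05 over all genes, on a scale that equals log2(signal + 16) by its floor and so understates changes of dim genes. The groups did not overlap for 21 members (75%), where 54.4% of all genes had groups that did not overlap. PLK2 was the only tested member with a group mean below the filter, in the control. Without it, 15 of 27 were higher and 3 lower. PLK2 is also among the 7 that rose at least 2-fold.

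**Figure D1:**
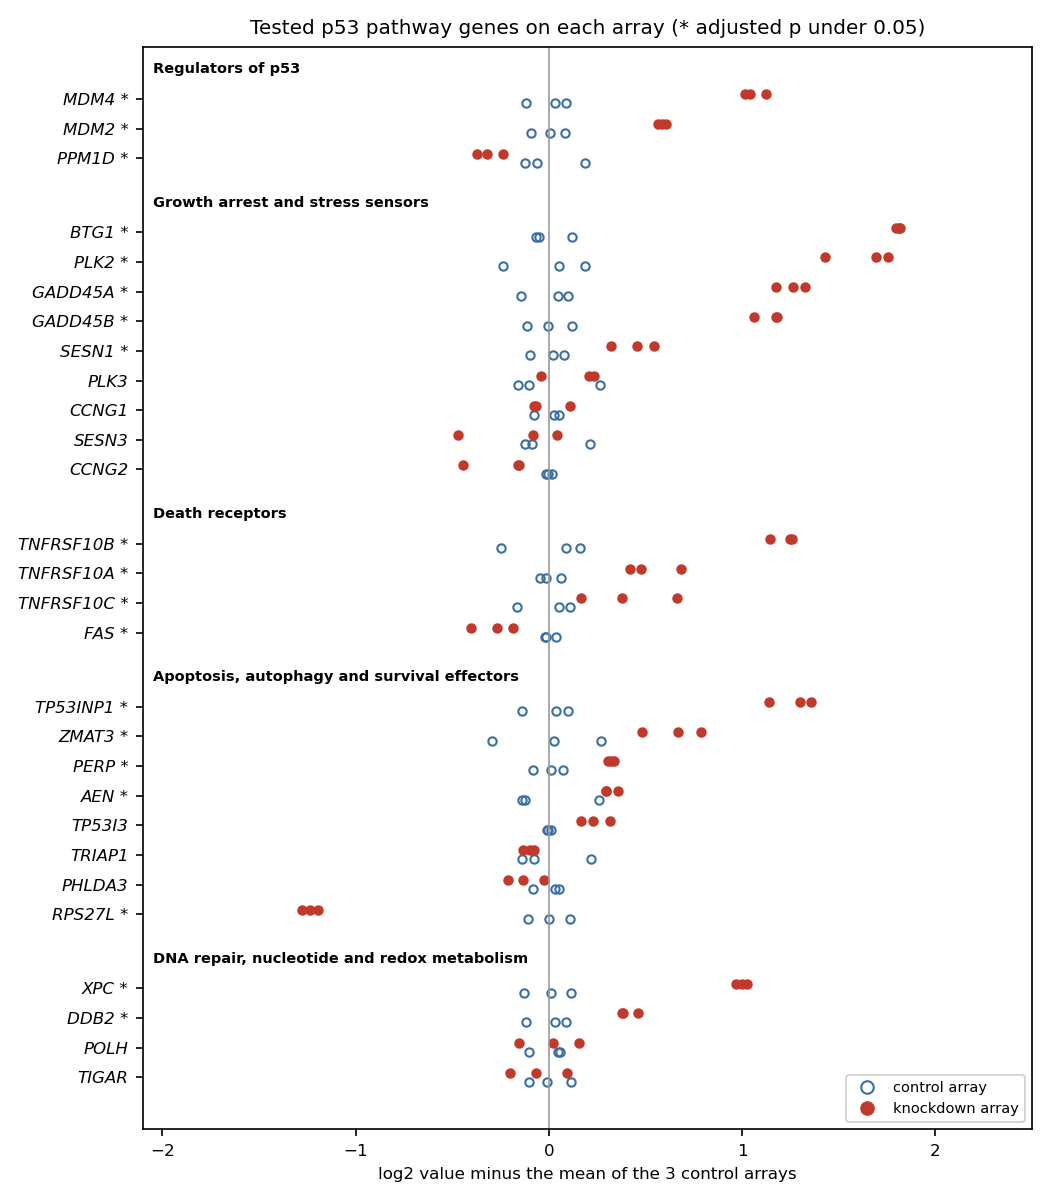
Values of the 28 tested members on each array, as the log2 value minus the mean of the 3 control arrays; open circles are control arrays, filled circles knockdown arrays, and an asterisk marks an adjusted p under 0.05. BTG1 and PLK2 lie farthest to the right and RPS27L farthest to the left, with no overlap between groups.

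**Figure D2:**
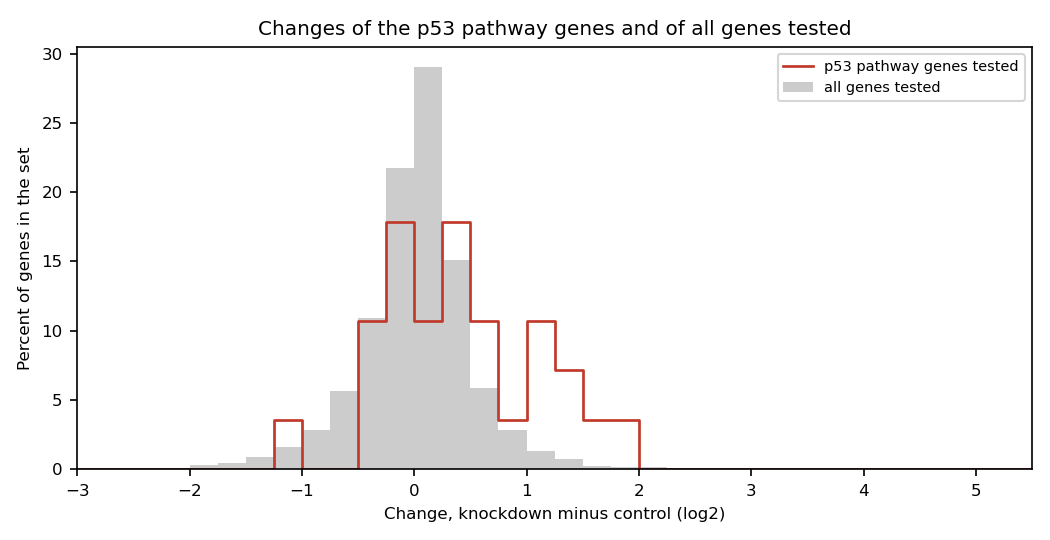
Distribution of the change, knockdown minus control on the log2 scale, over the 12939 genes tested (grey bars) and over the 28 members tested (line), as percent of each set in bins of 0.25. The bins from 1 to 2 hold 7 members, those that rose at least 2-fold, and the bins below −0.5 hold 1, RPS27L.

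MDM2 and MDM4, which bind and inhibit p53, rose on most of their probe sets, and PPM1D was called lower in the fit over genes. MDM2, the ubiquitin ligase that marks p53 for degradation, read 8.86, 8.76 and 8.94 on the control arrays and 9.42, 9.46 and 9.44 on the knockdown arrays by its brightest probe set, 229711_s_at. The groups did not overlap, and the knockdown arrays lay within a narrow range. The mean went from 8.86 ± 0.09 to 9.44 ± 0.02 (SD, n = 3 each), 1.50-fold higher (0.59, SE 0.08; limma, adjusted p = 4.04e-07). MDM2 is read by 10 probe sets, the most of any member, and 7 of them were called higher, 0 lower and 3 not called in the fit over all 54613 probe sets, of which 23.2% were called, 13.3% higher and 9.95% lower. The size of the change differed widely between them, from −0.12 to 1.93. Probe set 238733_at read 6.35, 6.11 and 6.34 in control and 8.13, 8.09 and 7.96 in knockdown arrays, which is 3.46-fold higher (1.79, SE 0.10; limma, adjusted p = 1.85e-08 over all probe sets). Probe set 237891_at, just below the filter, read 4.81, 4.46 and 4.28 in control and 6.49, 6.60 and 6.24 in knockdown arrays, a change of 1.93 (SE 0.15). Both thus rose more than the brightest probe set. The stretches of the MDM2 transcripts that the probe sets match were not analysed here.

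MDM4, the relative of MDM2 that binds p53 and blocks its activity, rose on 4 of its 6 probe sets and fell on 0. Its brightest probe set read 8.44, 8.23 and 8.38 on control arrays and 9.36, 9.48 and 9.39 on knockdown arrays. The groups lay about 1 unit apart, and the change was 1.06 (SE 0.08) or 2.09-fold (limma, adjusted p = 1.39e-11). The next brightest gave 1.16, and the mean over all 6 probe sets, dim ones included, changed by 0.61. PPM1D, the phosphatase WIP1 that switches off damage signalling and p53, was lower by 0.31 (6.21 ± 0.16 to 5.90 ± 0.07, SD, n = 3 each; SE 0.12; limma, adjusted p = 0.0281). In the fit over all probe sets, neither of its 2 probe sets was called (limma, adjusted p = 0.0673 and 0.331). The PPM1D promoter window is the one that holds TGACGTCA. The call for PPM1D was lost without control replicate 3 (−0.22, limma, adjusted p = 0.175) and without knockdown replicate 1 or 3 (0.0720 and 0.0748), and its adjusted p ran from 0.00716 to 0.175 over 17 alternatives, where an offset of 64 gave −0.18.

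**Figure D3:**
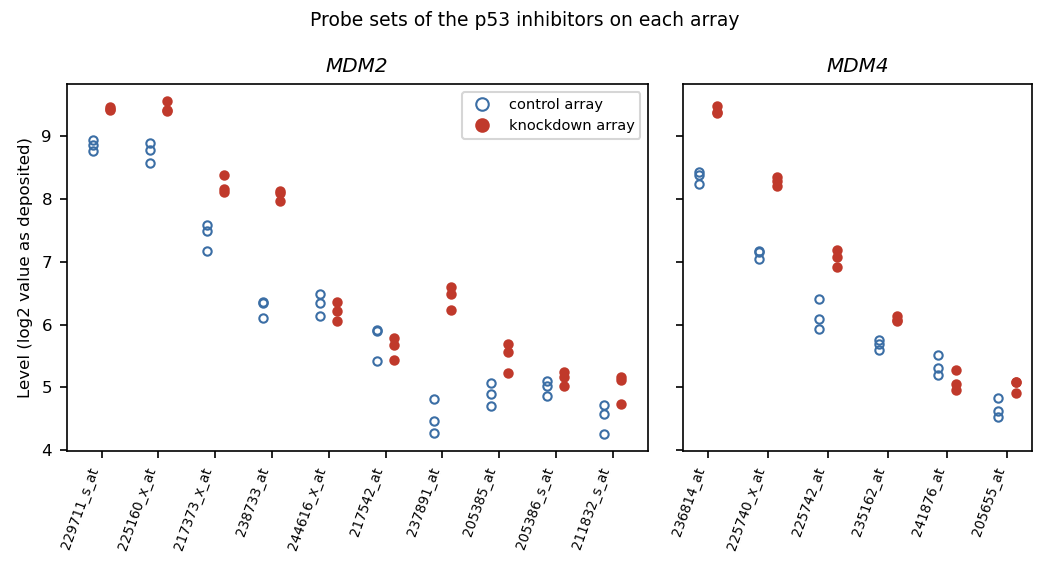
Deposited log2 level of each probe set of MDM2 (10) and MDM4 (6) on the 6 arrays, ordered from brightest to dimmest; open circles are control arrays and filled circles knockdown arrays. The 4 brightest MDM2 probe sets and the 4 brightest MDM4 probe sets are higher without overlap, while 244616_x_at and 217542_at of MDM2 overlap.

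Among genes of growth arrest and stress sensing, 5 of 9 tested members rose, 0 fell and 4 were not called, where 25.3% of all genes were higher and 22.0% lower; the median change was 0.44. BTG1, an antiproliferative protein that binds the CCR4-NOT deadenylase, had the largest rise of all tested members. It read 9.69, 9.51 and 9.52 in control and 11.37, 11.39 and 11.39 in knockdown arrays, which is 3.50-fold higher (1.81, SE 0.06; limma, adjusted p = 6.66e-20). Of all 12939 genes tested, 0.502% were higher by as much or more. A further bright BTG1 probe set gave 1.86 and a dim one 0.43, so all 3 were called higher. PLK2, a polo-like kinase of centriole duplication and stress responses, read 5.38, 5.09 and 5.52 in control and 7.02, 7.09 and 6.76 in knockdown arrays. The control mean of 5.33 lay below the filter level of 5.49, so PLK2 passed the filter only through its knockdown values. The change was 1.63 (SE 0.12) or 3.09-fold (limma, adjusted p = 4.86e-12), or 0.96 with an offset of 64. PLK2 is among the 5 members of this group that rose. PLK3, a relative of PLK2, was not called on any of its 3 probe sets, with a change of 0.13 on the brightest (95% interval −0.12 to 0.39).

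The GADD45 proteins are small acidic stress proteins that bind kinases of the p38 and JNK cascades and cell-cycle proteins. GADD45A, the member of this family best known as a p53 target, read 7.69, 7.50 and 7.74 in control and 8.97, 8.91 and 8.82 in knockdown arrays. Its change was 1.25 (SE 0.09) or 2.39-fold (limma, adjusted p = 3.66e-12). GADD45B, which is known also as a target of NF-kB, read 8.15, 7.91 and 8.02 in control and 9.09, 9.20 and 9.21 in knockdown arrays. Its change was 1.14 (SE 0.09) or 2.20-fold (limma, adjusted p = 9.19e-12), and 3 of its 4 probe sets were called higher. The one that was not, 213560_at, is also the only one with no _x_ or _s_ mark in its name and gave 0.27 (limma, adjusted p = 0.0773 when such probe sets came first; 17 of 18 alternatives kept the call, with adjusted p from 3.50e-24 to 0.0773). GADD45G lay below the filter at 4.97, 5.14 and 5.19 in control and 5.75, 5.94 and 5.78 in knockdown arrays. In the fit over all probe sets its change was 0.72 (SE 0.12; limma, adjusted p = 3.79e-04). The 3 family members thus did not overlap between groups, where 54.4% of all genes tested and 37.2% of all probe sets did not. Whether the changes of the 3 differ from each other was not tested.

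Sestrins restrain mTORC1 and limit oxidative damage. SESN1 rose from 7.44 ± 0.09 to 7.88 ± 0.11 (SD, n = 3 each), a change of 0.44 (SE 0.10; limma, adjusted p = 5.85e-04). Its window with an exact half-site is shown above. SESN3 was read by 7 probe sets, 6 of them below the filter, of which 0 were called in either direction; the brightest differed by −0.17 (95% interval −0.44 to 0.10). CCNG1 and CCNG2 encode cyclins G1 and G2, which are tied to growth arrest more than to cell cycle progress. CCNG1 was at 9.33 ± 0.07 in control and 9.32 ± 0.10 in knockdown cultures (SD, n = 3 each), and the interval of its difference ran from −0.17 to 0.15. CCNG2 had 0 of its 5 probe sets called in the fit over all probe sets, with changes from −0.25 to 0.14. By its brightest, CCNG2 differed by −0.25 (SE 0.11), with groups that did not overlap (limma, adjusted p = 0.0657). It was called lower under the 3 other scalings of the arrays, quantile normalization, median centring and cyclic loess (−0.31 each; limma, adjusted p = 0.0174, 0.0201 and 0.0188), where the median over all genes shifted by less than 0.1, and its adjusted p ran from 0.0174 to 0.455 over 17 alternatives.

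Death receptors were called in both directions. TNFRSF10B and TNFRSF10A encode DR5 and DR4, the receptors through which the ligand TRAIL starts apoptosis, and they lie in 1 row of genes with TNFRSF10C and TNFRSF10D. TNFRSF10B read 6.85, 6.51 and 6.92 in control and 8.02, 8.01 and 7.91 in knockdown arrays, which is 2.32-fold higher (1.22, SE 0.11; limma, adjusted p = 1.85e-10). All 3 of its probe sets above the filter were called higher, with changes of 0.72 to 1.22, and the mean over all 4 changed by 0.75. TNFRSF10A rose by 0.53 (7.44 ± 0.06 to 7.97 ± 0.14, SD, n = 3 each; SE 0.10; limma, adjusted p = 6.73e-05), and 2 of its 3 probe sets were called. TNFRSF10D, a decoy receptor without a working death domain and not a member here, differed by 0.16 (limma, adjusted p = 0.266).

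TNFRSF10C, a decoy receptor of TRAIL that lacks a death domain, was higher by 0.40 on its 1 single-symbol probe set above the filter (5.67 ± 0.15 to 6.07 ± 0.25, SD, n = 3 each; SE 0.13; limma, adjusted p = 0.0105). Probe sets shared with LOC254896 gave −0.24 (above the filter) and 0.08 (below it), and neither was called. The other single-symbol probe sets of TNFRSF10C were dim and gave 0.19, −0.45 and 0.05, none of them called, and a mean over all 4 changed by 0.05. Its call was lost without control replicate 3 (limma, adjusted p = 0.0503) and without knockdown replicate 3 (0.102), and under quantile normalization (0.0614) and cyclic loess (0.0587); over 16 alternatives the adjusted p ran from 0.00181 to 0.723.

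FAS, the receptor of FAS ligand and a p53 target with a response element in its first intron, was lower, unlike the TRAIL receptors. Its brightest probe set went from 6.92 ± 0.03 to 6.63 ± 0.11 (SD, n = 3 each), a change of −0.29 (SE 0.11; limma, adjusted p = 0.0272). The second brightest gave −0.38 and was the only one of its 5 probe sets called in the fit over all probe sets (limma, adjusted p = 0.0376), and averaging all 5 gave −0.18 and ended the call (limma, adjusted p = 0.135). The call was also lost without control replicate 1 or 3 and without knockdown replicate 2 or 3 (limma, adjusted p = 0.0703, 0.0512, 0.0597 and 0.112), and over 17 alternatives the adjusted p ran from 0.00651 to 0.135. EDA2R, the ectodysplasin receptor XEDAR, lay just below the filter and was not tested (5.34 ± 0.31 in control and 5.59 ± 0.06 in knockdown, SD, n = 3 each).

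Effectors of apoptosis, autophagy and survival held both a strong rise and the strongest fall. TP53INP1, a nuclear and autophagy protein that promotes p53 activity, read 7.27, 7.03 and 7.21 in control and 8.47, 8.52 and 8.31 in knockdown arrays on its brightest probe set. This is 2.40-fold higher (1.26, SE 0.10; limma, adjusted p = 1.38e-11). Another of its probe sets above the filter, 244721_at, differed by −0.17 and was not called, so the mean over the 3 probe sets changed by 0.41. ZMAT3, an RNA-binding zinc finger protein, rose on all 5 of its probe sets, with changes of 0.64 to 1.38; the brightest went from 7.32 ± 0.28 to 7.97 ± 0.15 (SD, n = 3 each), a change of 0.64 (SE 0.12; limma, adjusted p = 4.27e-05). At least 3 probe sets called higher were thus found for ZMAT3, MDM2, MDM4, BTG1, GADD45B and TNFRSF10B. This depends on the number of probe sets of a gene, and 13 of the 32 genes had only 1. The share of all genes that reach this count was not analysed.

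RPS27L, a ribosomal protein paralog that p53 induces and that binds MDM2, fell. It read 10.81, 10.70 and 10.60 in control and 9.43, 9.51 and 9.47 in knockdown arrays, which is 2.36-fold lower (−1.24, SE 0.07; limma, adjusted p = 3.22e-15). It was the only tested member to fall at least 2-fold. A second bright probe set gave −1.40, and the dimmest, 238935_at, which carries no _x_ or _s_ mark, gave −0.14 (limma, adjusted p = 0.300 when such probe sets came first; 17 of 18 alternatives kept the call, with adjusted p from 9.31e-49 to 0.300). RPS27L has a close paralog in RPS27, and the annotation pairs these probe sets with RPS27L alone; cross-hybridization between them was not tested. Its promoter window holds an exact p53 half-site, as do those of PLK2 and SESN1, which rose.

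**Figure D4:**
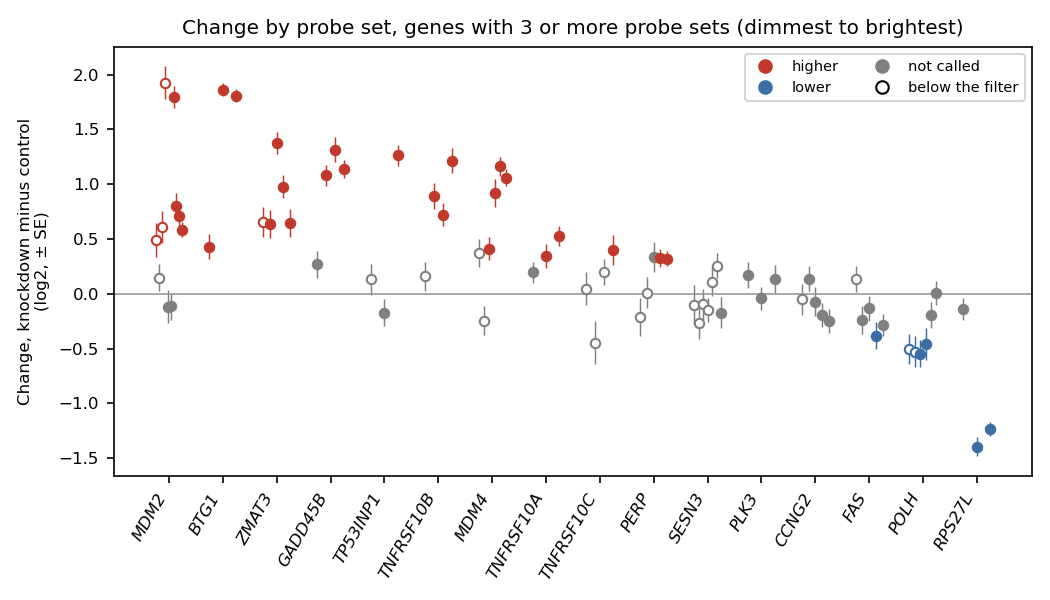
Change of each single-symbol probe set, knockdown minus control on the log2 scale ± SE, for the members with 3 or more probe sets; within a gene, probe sets run from dimmest to brightest. Colour gives the call over all probe sets and open circles lie below the filter. ZMAT3 and BTG1 are called higher throughout, and the 2 brightest RPS27L probe sets are the lowest points.

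Smaller rises were seen for PERP, a membrane protein of desmosomes and apoptosis (0.32, SE 0.08; limma, adjusted p = 0.00134), and AEN, a nuclease of apoptotic DNA breakdown (0.32, SE 0.11; limma, adjusted p = 0.0170). Averaging the 5 probe sets of PERP ended its call (0.16; limma, adjusted p = 0.145), 2 of them below the filter, and its adjusted p ran from 3.97e-05 to 0.145 over 18 alternatives. AEN was not called without control replicate 2 or 3 or without knockdown replicate 1 (limma, adjusted p = 0.0630, 0.0986 and 0.0652), and its adjusted p ran from 7.71e-04 to 0.0986. TP53I3, a quinone oxidoreductase also called PIG3, was at 5.61 ± 0.01 in control and 5.84 ± 0.07 in knockdown (SD, n = 3 each), a difference of 0.24 that did not pass (limma, adjusted p = 0.0939). TRIAP1, a small survival protein of mitochondrial lipid transfer, differed by −0.10 (95% interval −0.30 to 0.09) and PHLDA3, an inhibitor of AKT, by −0.12 (95% interval −0.34 to 0.10). SPATA18, a protein of mitochondrial quality control, was below the filter with means of 5.24 and 4.92, and its dimmer probe set lay at or near the floor of 4.

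Of 4 tested genes of DNA repair, nucleotide and redox metabolism, 2 were called higher, XPC and DDB2, and 2 were not called. The 50% called was near the 47.3% of all genes, of which 25.3% were higher and 22.0% lower. XPC, which finds damaged bases for nucleotide excision repair, read 6.99, 6.74 and 6.88 in control and 7.90, 7.84 and 7.87 in knockdown arrays. Its change was 0.999 (SE 0.10), just under the 2-fold line (limma, adjusted p = 2.17e-09). DDB2, which binds ultraviolet lesions ahead of XPC, read 7.19, 6.99 and 7.14 in control and 7.48, 7.57 and 7.49 in knockdown arrays, a change of 0.41 (SE 0.10; limma, adjusted p = 0.00147). DDB2 is the member whose window holds the pair of half-sites with 0 mismatches. Neither gene's groups overlapped, where 54.4% of all genes had groups that did not overlap. TIGAR, a phosphatase that slows glycolysis, differed by −0.06 (95% interval −0.29 to 0.17). RRM2B, the p53-inducible subunit of ribonucleotide reductase, lay below the filter at 5.38 ± 0.15 and 5.44 ± 0.06 (SD, n = 3 each).

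POLH, the polymerase eta that copies past ultraviolet lesions, was read differently by its probe sets. The brightest, 219380_x_at, was at 6.57 ± 0.09 in control and 6.58 ± 0.16 in knockdown (SD, n = 3 each) and differed by 0.01 (95% interval −0.22 to 0.24). Of the other 5, 4 were called lower in the fit over all probe sets, with changes of −0.46 to −0.55 (limma, largest adjusted p = 0.0352), and averaging all 6 gave −0.37 (limma, adjusted p = 0.00373; from 0.00373 to 0.999 over 18 alternatives). The 9 members not called by their brightest probe set thus include 1 that was called lower by others.

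Over all single-symbol probe sets of the members, 37 of 95 were called higher (38.9%), 7 lower (7.37%) and 51 not called. Of all 54613 probe sets, 13.3% were higher and 9.95% lower. Below the filter lay 31 of the 95. The filter is the median over all probe sets, so dim ones made up a larger share of the 54613. The part of brightness in the contrast was not tested. No member had probe sets called in opposite directions above the filter. Probe sets of 1 gene share their RNA and are not replicates.

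A further list held 48 other genes of the p53 pathway, grouped by function and chosen with earlier results of these data known. Of these, 45 had a single-symbol probe set and 39 were tested. BBC3 had only a probe set of several symbols and is not in these counts. The test called 10 higher (25.6%) and 10 lower (25.6%), near the 25.3% and 22.0% of all genes, and the median change of the 39 was −0.02, beside 0.05 over all genes. Among 12 tested upstream kinases and partners of p53, 2 were higher (16.7%) and 4 lower (33.3%), and the 50% called was near the 47.3% of all genes. CHEK1, a checkpoint kinase of the S and G2 phases, fell by 0.99, or 0.39 when its probe sets were averaged, and PRKDC, the kinase of DNA end joining, fell by 0.88, or 0.53 when averaged (limma, adjusted p = 2.95e-09 and 9.95e-09). Among 27 tested further targets, each read by its brightest probe set, 8 were higher (29.6%) and 6 lower (22.2%), again near the shares of all genes. DDIT4, an inhibitor of mTORC1, CDKN1A, the CDK inhibitor p21, SESN2, a further sestrin, and PMAIP1, the BH3-only protein NOXA, rose by 2.61, 2.10, 2.18 and 1.25 (limma, largest adjusted p = 2.21e-11). SIVA1, a death-domain adaptor, fell by 1.12, or 0.72 with an offset of 64, and ASCC3, a helicase of alkylation repair, fell by 0.81 (limma, adjusted p = 6.58e-09 and 3.94e-07). SESN2 thus rose beside SESN1, and their changes were not tested against each other.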

How the data were processed

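The values deposited by the authors are log2 expression values per probe set, with a floor at 4, the log2 of 16, so that log2(signal + 16) was read from the values. Per the submitters' processing notes the tools MAS5 and PLIER were used; their versions, roles and the normalization between arrays are not given in the sources used here. Of the probe sets, 62 controls were left out and 41091 carried 1 symbol by the platform annotation; 32 member symbols had the same gene ID in RefSeq's table (GRCh38.p14), used for names and neighbours. Values were used as deposited. Label text on embryos does not describe this cell line and was not used.

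A gene was read by its brightest probe set and tested if its mean reached 5.49, the median over probe sets. Knockdown was compared with control in R 4.3.3 with limma 3.58.1 (eBayes with a trend, two-sided); p-values were adjusted by Benjamini-Hochberg over all genes, or over all probe sets in a separate fit; the procedure was tested on simulated data. With 3 against 3 arrays an exact permutation test cannot give a p below 0.1. Promoters were searched in Python 3.11.15; the allowance of up to 2 mismatches in a pair of half-sites was chosen after seeing the data. A protein comparison that had been planned was not made.

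All members are accounted for; array values are printed for members called with a change of at least 1 and for MDM2, up to 4 other pathway genes are named in each direction by adjusted p, and array values beyond that rule, chosen after seeing them, for GADD45G, XPC, DDB2 and further MDM2 probe sets. The members and lists were chosen with earlier results of these data known. Alternatives changed 1 choice at a time: replicate block, scaling, filter, probe set rule, variance model, offset and arrays left out. The number of arrays limits the precision.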

Additional observations from a re-analysis of the deposited data

How the results depend on the processing

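The count of members called higher stayed between 14 and 17 over all 18 alternatives, against 16. The count called lower, 3, moved to 1 with the replicate number as a block and to 1 when a gene's unmarked probe sets (no _x_ or _s_ in the name) came first, and ran from 1 to 3 without single arrays (1 without control replicate 3 and 1 without knockdown replicate 3); it was 4 under quantile normalization, median centring and cyclic loess. The block kept 16 members higher and 17 of the 19 calls, and PPM1D and FAS were lost (limma, adjusted p = 0.0516 and 0.0774); same-numbered arrays did not deviate together (r = −0.09, −0.26 and −0.30), so the numbers were not used as a pairing. The median change of the members, 0.36, was 0.27 with an offset of 64, 0.48 with a filter at the 75th percentile and 0.28 with the mean over probe sets, and 0.31 to 0.44 without single arrays. Member probe sets called lower, 7, ran from 4 to 7 without single arrays (4 without control replicate 3, knockdown replicate 2 or knockdown replicate 3), and were 10 under each of those 3 scalings. POLH turned to −0.37 and was called when its probe sets were averaged. Of 656 alternative values of 37 single genes, 21 lost and 5 gained a call and 15, of 4 genes, changed sign with no call on either side. BTG1 gave 0.43 and MDM2 1.79 with unmarked probe sets first. For all except POLH, where the value itself shows which probe sets were averaged, the cause was not tested. Levels below the filter limit what can be seen of GADD45G, SPATA18, RRM2B and EDA2R.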

Other observations

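Further genes of the p53 pathway that lie outside the rule for named genes were chosen after their values were seen. ANKRA2, an ankyrin repeat protein, was higher by 1.21 and CYFIP2, a part of the WAVE complex, by 0.66 (limma, adjusted p = 2.46e-10 and 7.70e-07). BAX, which permeabilizes mitochondria in apoptosis, was higher by 0.41 (limma, adjusted p = 0.00569). BBC3 was read only by a probe set that carries further symbols, and so was left out of the gene fit. That probe set was higher by 1.64 (limma, adjusted p = 4.33e-08 over all probe sets). CHEK2 and ATR, kinases that signal DNA damage to p53, fell by 0.86 and 0.67, while ATM was higher by 0.34 (limma, adjusted p = 8.78e-07, 3.68e-05 and 0.00624). SFN, the 14-3-3 sigma protein, and THBS1, a secreted matrix protein, fell by 0.62 and 0.73 on their brightest probe sets (limma, adjusted p = 3.17e-06 and 3.52e-06). The other THBS1 probe set above the filter was called higher, by 0.42 (limma, adjusted p = 0.0246 over all probe sets). GTSE1 counts as not called by its brightest probe set, which differed by 0.03. Its other single-symbol probe sets above the filter were called lower, with changes of −1.71 to −1.84 (limma, largest adjusted p = 2.93e-07 over all probe sets).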
